A study of Mus musculus with 6 samples.

Results

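The genes described here are 6 metabolic enzymes and fuel transporters of the mouse uterus: Pck1, Aldoc, Gldc, Lpl, Slc27a2 and Slc13a5. They were chosen by symbol, as all probe sets annotated to these genes, and each had 1 probe set, so the members are 6 of 1382 probe sets and 6 of 987 named genes in the table. RNA came from whole uteri of female mice, taken before implantation at 3.5 days post coitum, and was hybridised to Affymetrix expression arrays. The groups were Stat3 d/d, in which the floxed Stat3 alleles are deleted (3 arrays), and Stat3 f/f, in which they are intact (3 arrays). The labels name neither the recombinase that deletes Stat3 nor the cells in which it acts, and do not say whether each array held RNA of 1 animal, so the p-values reflect the spread among these arrays alone, some of which may be technical. In RNA of a whole organ, fewer cells of a type and less RNA per cell cannot be told apart.

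Cells draw on glucose, fatty acids, amino acids and organic acids as fuels, and each of these genes stands at an entry or a branch point of such a route. Phosphoenolpyruvate carboxykinase (Pck1) turns oxaloacetate into phosphoenolpyruvate for gluconeogenesis and glycerol synthesis, and aldolase C (Aldoc) splits fructose bisphosphate in glycolysis. Glycine decarboxylase (Gldc) is the subunit of the glycine cleavage system that releases the carboxyl carbon of glycine and feeds one-carbon metabolism. Lipoprotein lipase (Lpl) frees fatty acids from circulating triglyceride, the acyl-CoA synthetase and fatty acid transport protein Slc27a2 takes up and activates long and very long chain fatty acids, and Slc13a5 imports citrate with sodium. In the uterus around implantation, glucose, glycogen and lipid are known as fuels of the epithelium, the differentiating stroma and the embryo.

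Of the 6 genes, 4 rose in Stat3 d/d uteri and 2 fell. The rises were in Gldc, Slc13a5, Pck1 and Slc27a2, and the falls in Aldoc and Lpl. Gldc rose most, 4.94-fold between the mean intensities, and Aldoc fell to 35.4% of its Stat3 f/f mean. The split is that of the whole table, where 67.4% of probe sets passed an adjusted p of 0.05 with a rise in Stat3 d/d and 32.6% with a fall.

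The table had been selected on this same comparison. All 1382 probe sets differ at least 1.5-fold between group means, all have groups that do not overlap, and 100% pass the limma test at an adjusted p of 0.05, so that a pass by all 6 members is no result about them. Probe sets outside the selection were not analysed here, including any others for these genes. Of the 2 probe sets for Stat3, the brighter one averaged 118 ± 14.9 in Stat3 d/d and 287 ± 60.8 in Stat3 f/f (mean intensity ± SD, n = 3 arrays each), and the place of that probe set relative to the deleted exons was not examined. Of 13 uterine epithelial and gland markers the table held 1, Calb1, of 8 stromal markers 1, Dcn, and of 6 smooth muscle markers 0, so the tissue label could not be checked on defining markers.

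The DNA just before the transcription starts of the members was read from RefSeq's promoter table (build GRCm38.p6), in which 5 of the 6 genes matched, with 7 starts, and Lpl did not. The search covered the 250 bases before each start, on both strands, for 3 motifs that did not overlap each other where found. The first, TTCNNNGAA, is the palindrome bound by STAT proteins. It was found before 1 of the 7 starts, the downstream start of Aldoc, in 2 copies, and 7.02% of 32851 mouse windows of this length hold it. The second, TTACGTCA, is the cyclic AMP response element known from the Pck1 promoter. It was found before the Pck1 start alone of the 7, and in 0.447% of all windows. The third, CCAAT, was found before the start of Gldc and before 1 of 2 starts of Slc13a5, and in 33.8% of all windows. A match describes letters only, and neither binding nor use of either start was measured here.

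The 4 windows printed are those of the member that fell most, at both of its starts, of the member that rose most, and of Pck1, whose promoter element is a textbook case. Each runs 5′ to 3′ on the strand of the gene and ends at the base before the start, with matches in capitals. The Aldoc windows lie on the plus strand at chr11:78322823-78323072 (upstream start) and chr11:78323948-78324197 (downstream start), that of Gldc on the minus strand at chr19:30175442-30175691, and that of Pck1 on the plus strand at chr2:173152823-173153072.
Aldoc, upstream start: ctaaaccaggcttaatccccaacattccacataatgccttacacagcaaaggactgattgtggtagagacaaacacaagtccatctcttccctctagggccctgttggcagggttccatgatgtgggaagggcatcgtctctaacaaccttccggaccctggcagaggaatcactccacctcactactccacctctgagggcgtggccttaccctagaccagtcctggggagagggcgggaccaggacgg
Aldoc, downstream start: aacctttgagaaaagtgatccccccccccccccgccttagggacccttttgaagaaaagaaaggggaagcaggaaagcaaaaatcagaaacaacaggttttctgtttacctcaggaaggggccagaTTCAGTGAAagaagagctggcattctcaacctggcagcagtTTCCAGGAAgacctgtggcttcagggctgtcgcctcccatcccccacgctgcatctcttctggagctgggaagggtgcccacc
Gldc: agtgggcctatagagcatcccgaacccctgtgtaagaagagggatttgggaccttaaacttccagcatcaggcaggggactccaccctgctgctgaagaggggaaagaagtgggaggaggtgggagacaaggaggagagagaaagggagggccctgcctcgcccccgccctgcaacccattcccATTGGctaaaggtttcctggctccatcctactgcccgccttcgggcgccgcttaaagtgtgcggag
Pck1: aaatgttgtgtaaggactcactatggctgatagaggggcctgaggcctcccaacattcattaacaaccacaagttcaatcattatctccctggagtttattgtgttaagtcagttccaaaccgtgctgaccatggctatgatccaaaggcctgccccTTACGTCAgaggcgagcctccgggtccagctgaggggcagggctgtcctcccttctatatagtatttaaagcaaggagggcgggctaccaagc
The capitals mark TTCAGTGAA, 124 to 116 bases before the downstream Aldoc start, and TTCCAGGAA, 83 to 75 bases before it. In Gldc they mark ATTGG, the reverse complement of CCAAT, 66 to 62 bases before the start, and in Pck1 they mark TTACGTCA, 93 to 86 bases before the start. The upstream Aldoc window holds none of the 3 motifs, which says only that these letters are not in that window.

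The 2 enzymes of sugar metabolism moved in opposite directions. Pck1, of gluconeogenesis, read 11.5, 12.3 and 11.7 in Stat3 d/d replicates 1, 2 and 3, against 5.53, 6.58 and 5.84 in Stat3 f/f replicates 1, 2 and 4 (normalized intensity on a linear scale). The groups stood clear of each other, the lowest Stat3 d/d array being 1.75 times the highest Stat3 f/f array. The mean was 11.9 ± 0.421 in Stat3 d/d and 5.98 ± 0.539 in Stat3 f/f, a log2 change of 0.88 (SE 0.16, 95% interval 0.53 to 1.24, limma adjusted p = 0.000784). After quantile normalization the log2 change was 0.40 and the call was lost (adjusted p = 0.05003). The Stat3 d/d arrays lay close together: the SD of their log2 values, 0.05, was smaller than in all but 5.64% of the table. The probe set was dim, with 14.3% of the table dimmer, and the files give no detection call.

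Aldoc, of glycolysis, is the aldolase known for its expression in brain. It read 13.1, 12.9 and 14.0 in Stat3 d/d replicates 1, 2 and 3, against 36.1, 23.8 and 53.1 in Stat3 f/f replicates 1, 2 and 4. All 3 Stat3 d/d arrays gave nearly 1 value, while the Stat3 f/f arrays ranged from 23.8 in replicate 2 to 53.1 in replicate 4. The mean was 13.3 ± 0.599 in Stat3 d/d and 37.7 ± 14.7 in Stat3 f/f, and the log2 change was -1.36 (SE 0.25, 95% interval -1.92 to -0.80, limma adjusted p = 0.000917). The SD of the log2 values was 0.06 in Stat3 d/d and 0.56 in Stat3 f/f, against table medians of 0.17 in Stat3 d/d and 0.22 in Stat3 f/f. For Aldoc, 9.33% of probe sets had a smaller SD in Stat3 d/d, and 93.8% had a smaller SD in Stat3 f/f. The log2 change of Aldoc was -1.08 without Stat3 f/f replicate 4 and -1.64 without Stat3 f/f replicate 2.

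Gldc, of glycine cleavage, read 25.7, 18.5 and 26.8 in Stat3 d/d replicates 1, 2 and 3, against 4.97, 5.23 and 4.18 in Stat3 f/f replicates 1, 2 and 4. The Stat3 f/f arrays were near the lowest intensity anywhere in the table, 2.47, and every Stat3 d/d array was at least 3.54 times the highest of them. The mean was 23.7 ± 4.48 in Stat3 d/d and 4.79 ± 0.547 in Stat3 f/f, a log2 change of 2.08 (SE 0.19, 95% interval 1.66 to 2.50, limma adjusted p = 1.11e-05). The files do not show whether the Stat3 f/f arrays were above background for Gldc, so the size of its rise is less certain than the direction, and without the added 1 the log2 change was 2.29. Within Stat3 d/d, replicate 2 was the low array.

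**Figure D1:**
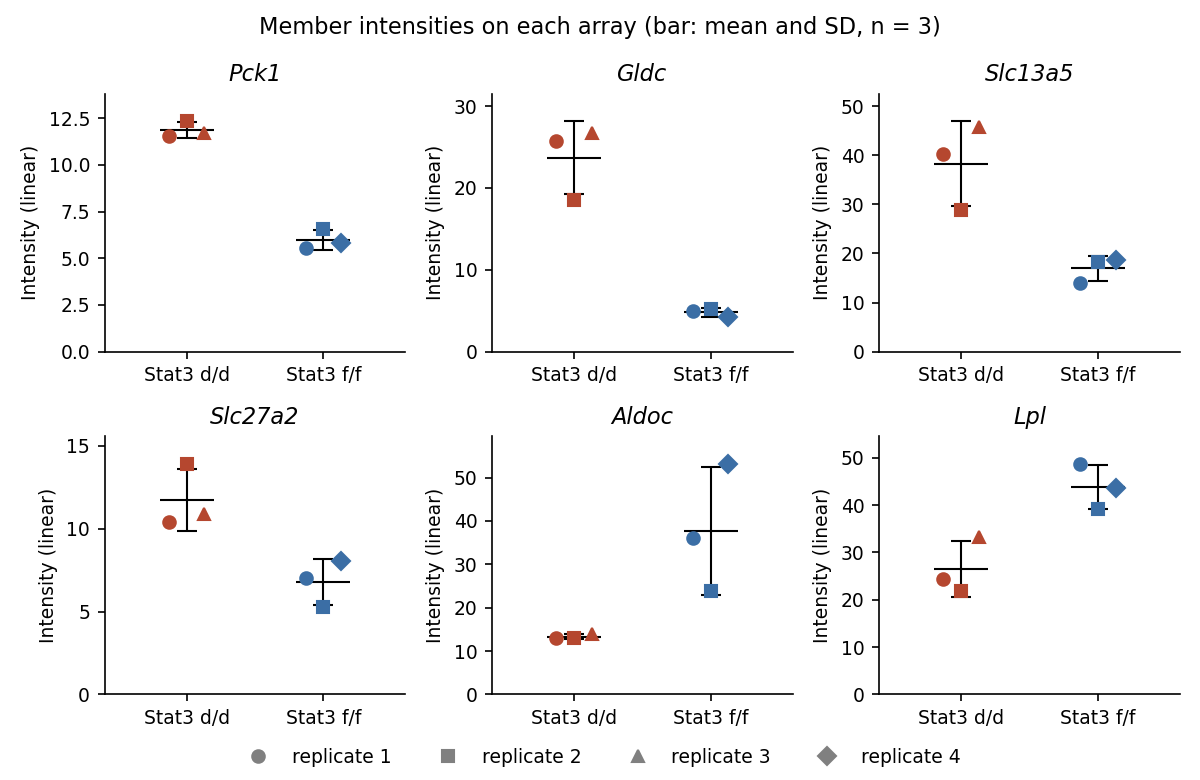
Intensity on a linear scale from 0 (vertical axis) of each member on every array, Stat3 d/d on the left and Stat3 f/f on the right of each panel, with symbols for replicate numbers and bars for the mean and SD of 3 arrays. The groups are apart for all 6 genes, as they are for 100% of the selected table. The Stat3 f/f arrays of Aldoc spread from 23.8 to 53.1 while its Stat3 d/d arrays lie between 12.9 and 14.0.

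The genes of fatty acid supply went both ways. Lpl read 24.4, 21.8 and 33.3 in Stat3 d/d replicates 1, 2 and 3, against 48.7, 39.2 and 43.6 in Stat3 f/f replicates 1, 2 and 4. The groups were close, with the lowest Stat3 f/f array, replicate 2, at 1.18 times the highest Stat3 d/d array, replicate 3. The mean was 26.5 ± 6.0 in Stat3 d/d and 43.8 ± 4.73 in Stat3 f/f, a log2 change of -0.72 (SE 0.20, 95% interval -1.15 to -0.29, limma adjusted p = 0.00525). Stat3 d/d thus had 60.4% of the Stat3 f/f mean on this probe set, and the ratio of 1.65 lies close to the edge of the selection.

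Slc27a2 read 10.4, 13.9 and 10.9 in Stat3 d/d replicates 1, 2 and 3, against 7.05, 5.30 and 8.06 in Stat3 f/f replicates 1, 2 and 4. Replicate 2 was the high array in Stat3 d/d and the low one in Stat3 f/f. The probe set was dim, as for Pck1, with 15.1% of the table dimmer and no detection call given. The mean was 11.8 ± 1.89 in Stat3 d/d and 6.80 ± 1.40 in Stat3 f/f, a log2 change of 0.71 (SE 0.19, 95% interval 0.28 to 1.15, limma adjusted p = 0.00545). This was the smallest change of the 6, and it lost its call when arrays were rescaled: the log2 change was 0.25 (adjusted p = 0.272) after centring each array on its median and 0.28 (adjusted p = 0.219) after quantile normalization.

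Slc13a5, the citrate transporter, read 40.2, 28.9 and 45.9 in Stat3 d/d replicates 1, 2 and 3, against 14.1, 18.2 and 18.7 in Stat3 f/f replicates 1, 2 and 4. Every Stat3 d/d array was at least 1.54 times the highest Stat3 f/f array, and replicate 2 was the low one, as for Gldc. The mean was 38.3 ± 8.64 in Stat3 d/d and 17.01 ± 2.55 in Stat3 f/f, a log2 change of 1.11 (SE 0.21, 95% interval 0.65 to 1.57, limma adjusted p = 0.000937). Its Stat3 d/d arrays spread more than most, with a log2 SD of 0.33, and 84.2% of the table had a smaller one.

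**Figure D2:**
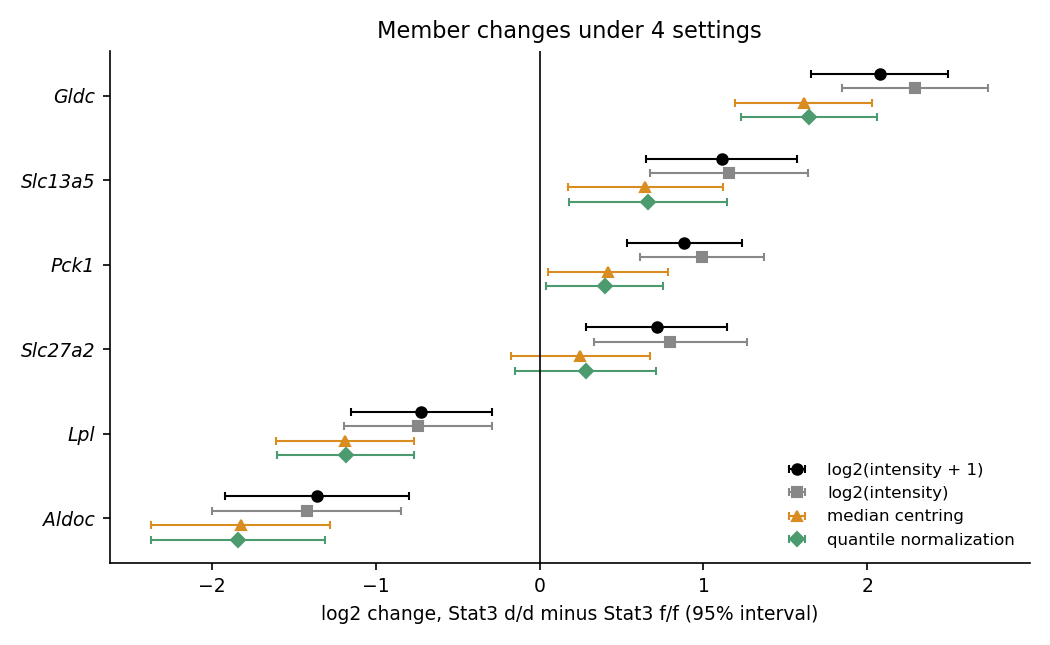
Log2 change, Stat3 d/d minus Stat3 f/f (horizontal axis), of each member with its 95% interval from limma, under the main setting, without the added 1, after median centring and after quantile normalization. Both rescalings move every member to the left, and the interval of Slc27a2 then includes 0, with changes of 0.25 and 0.28.

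The scaling between arrays bears on the small rises. In the table as a whole the median log2 change was 0.70, and it became 0.24 after median centring and 0.25 after quantile normalization. After median centring 63.2% of the table passed (30.5% higher, 32.6% lower in Stat3 d/d), as did 5 of the 6 members (3 higher, 2 lower), and after quantile normalization 64.2% passed (31.5% higher, 32.6% lower), as did 4 members (2 higher, 2 lower). Pck1 followed, at 0.42 (adjusted p = 0.0483) after median centring and just over the threshold after quantile normalization, as given above, and Slc13a5 at 0.65 (adjusted p = 0.0220) and 0.66 (adjusted p = 0.0205). Gldc stayed past the threshold at 1.61 and 1.64. Aldoc became -1.83 and -1.84, and Lpl -1.19 and -1.18. Both rescalings used only the selected probe sets, of which 67.4% were higher in Stat3 d/d. Lower log2 changes after either are therefore partly built in. The RMA named by the submitters already includes quantile normalization. Whether the arrays needed a further rescaling was not tested, and the selected table alone cannot show it.

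With an adjustment for 45000 tests, about the size of a whole array, 37.5% of the table passed (28.0% higher, 9.48% lower in Stat3 d/d). Of the members, 4 passed: Gldc (adjusted p = 0.000362), Pck1 (adjusted p = 0.0255), Aldoc (adjusted p = 0.0299) and Slc13a5 (adjusted p = 0.0305). Lpl (adjusted p = 0.171) and Slc27a2 (adjusted p = 0.178) did not. An exact permutation test over the 6 arrays, two-sided, gave 0.10 for every member, the smallest p that 3 against 3 allows. The groups do not overlap in 100% of the table, so this test could give no other value and is no result about the members.

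Against the rest of the table the members were of middling size, apart from Gldc and Aldoc. The median log2 change of the 4 that rose was 0.998, beside 0.93 over all probe sets that were higher, and that of the 2 that fell was -1.04, beside -0.79 over all that were lower. Changes of at least 2-fold (a log2 change of 1 or more in size) were seen in 3 members, Gldc, Aldoc and Slc13a5, and in 38.2% of the table. Larger changes in the same direction were found for 34.9% of the probe sets that were higher in the case of Slc13a5, 54.2% for Pck1 and 72.5% for Slc27a2. For the falls, the share of the 451 lower probe sets with a larger fall was 14.0% for Aldoc and 61.4% for Lpl.

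**Figure D3:**
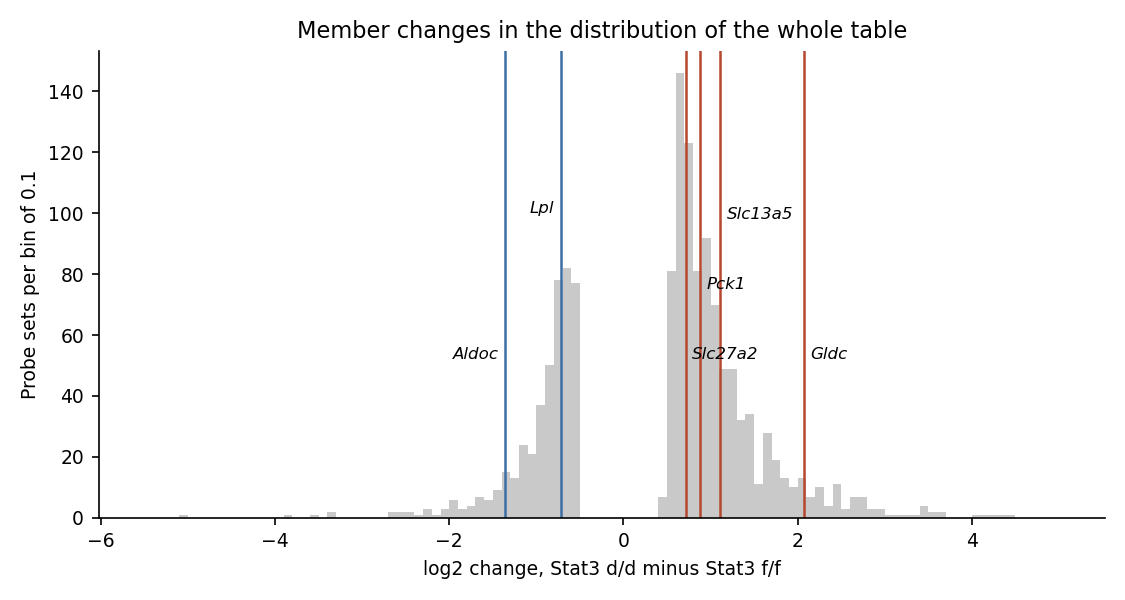
Number of probe sets (vertical axis) by log2 change, Stat3 d/d minus Stat3 f/f, in bins of 0.1 for all 1382 probe sets, with a line for each member. The gap around 0 is the selection of the table, Gldc at 2.08 and Aldoc at -1.36 lie in the tails, and the other 4 lie where the table is dense.

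The other genes of the members' pathways were taken from 6 lists with 181 genes in all. Of these, 6 were in the table: 5 rose, 1 fell, and their median log2 change was 0.98. No gene came from gluconeogenesis and glycogen (0 of 18), from glucose uptake and glycolysis (0 of 39), or from citrate transport and the citric acid cycle (0 of 27). Pck1, Aldoc and Slc13a5 were thus without another listed gene of their route in the table, which does not show that those genes were unchanged.

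Of 24 glycine, serine and one-carbon genes, 2 were in the table and both rose with Gldc. Gatm moves the amidino group of arginine onto glycine in creatine synthesis. It read 74.3, 79.6 and 69.3 in Stat3 d/d and 41.2, 28.7 and 38.0 in Stat3 f/f, a log2 change of 1.04 (SE 0.18). Cbs, which condenses serine with homocysteine, averaged 64.2 ± 2.83 in Stat3 d/d and 40.4 ± 12.6 in Stat3 f/f, a log2 change of 0.70 (SE 0.22) that lost its call after median centring (0.23, adjusted p = 0.377).

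Of 41 genes of lipoprotein lipolysis and fatty acid uptake, 3 were in the table, 2 higher and 1 lower. Lipg, the endothelial lipase of the same family as Lpl, fell with it, to 15.4, 13.2 and 13.4 in Stat3 d/d, against 22.0, 24.4 and 38.7 in Stat3 f/f (log2 change -0.93, SE 0.22). Acsl4, which activates arachidonic acid and other long chain fatty acids, rose by 1.15 (SE 0.23) on its brightest probe set, at 239.7 ± 2.09 in Stat3 d/d and 112 ± 37.1 in Stat3 f/f, and by 0.80 and 0.52 on its other 2. Apoe, a ligand for lipoprotein receptors, rose by 0.93 (SE 0.25), and its change after median centring was 0.46 (adjusted p = 0.118). Of 32 genes of fatty acid oxidation and synthesis, 1 was in the table: Pex11a, which promotes division of peroxisomes, rose by 1.22 (SE 0.19), with 143 ± 9.15 in Stat3 d/d and 61.3 ± 12.8 in Stat3 f/f.

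**Figure D4:**
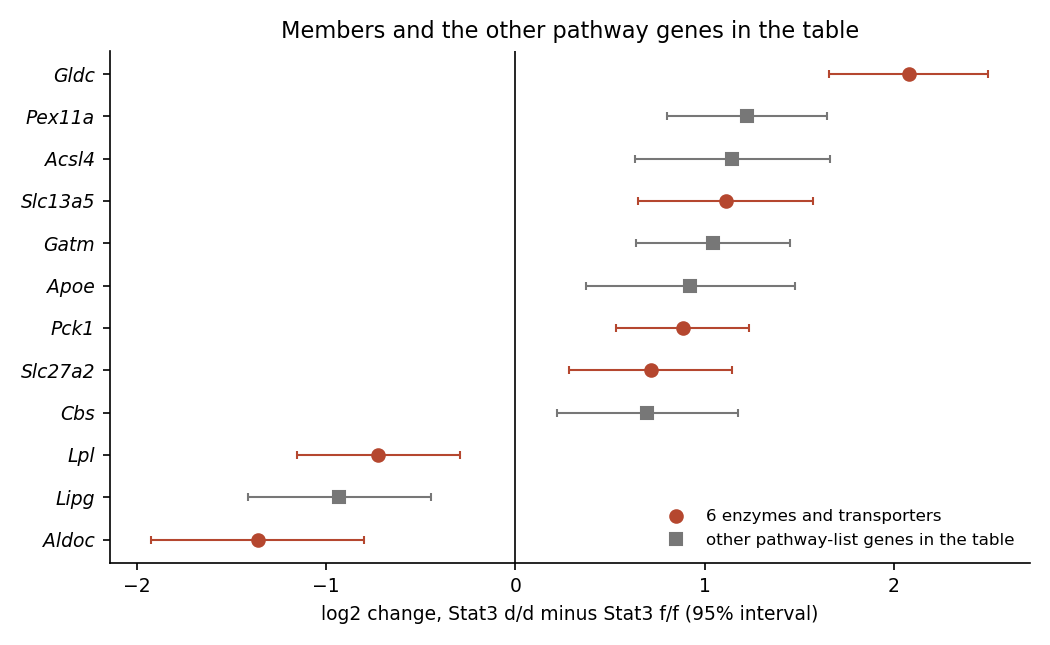
Log2 change, Stat3 d/d minus Stat3 f/f (horizontal axis), with its 95% interval from limma, for the 6 enzymes and transporters (circles) and the 6 other pathway genes in the table (squares), each by its brightest probe set. Both lipases, Lpl and Lipg, lie left of 0 with Aldoc, and the other 9 genes lie to the right.

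Other cell types express several of these genes, Lpl and Pck1 in adipocytes and Lpl in macrophages. Liver expresses Pck1, Slc13a5, Slc27a2 and Gldc, and kidney expresses Pck1. Of 10 adipocyte markers the table held 0, and of 6 kidney proximal tubule and 6 endothelial markers also 0. Of 16 macrophage and dendritic cell markers, 7 were in the table and all rose, led by Ctss (1.79) and Itgax (1.52), with summed intensities of 771 to 1632 in Stat3 d/d and 295 to 455 in Stat3 f/f. Over all probe sets, 67.4% rose. Of these 7 markers, 5 were higher past the threshold after median centring, 4 after quantile normalization and 4 with 45000 assumed tests. Of 14 T and NK cell markers, 9 were in the table and all rose, led by Gzmb (2.44) and Klrd1 (2.20), with sums of 602 to 959 in Stat3 d/d and 167 to 291 in Stat3 f/f. A large part of these sums is Ptprc, which leukocytes in general express, at 270 to 420 in Stat3 d/d and 81.6 to 145 in Stat3 f/f. All 9 still rose past the threshold after either rescaling, and 8 did with 45000 assumed tests.

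Of 7 hepatocyte markers the table held Ttr alone, at 53.1 to 73.8 in Stat3 d/d and 5.22 to 20.2 in Stat3 f/f on its brightest probe set. Of 9 ovary and oviduct markers it held Ovgp1, at 239.7 to 494 in Stat3 d/d and 7.42 to 31.3 in Stat3 f/f. Of the uterine markers named above, Calb1 rose (2222 to 2434 in Stat3 d/d, 658 to 758 in Stat3 f/f) and Dcn fell (9.59 to 14.4 in Stat3 d/d, 22.2 to 34.9 in Stat3 f/f), and of 5 mesothelial markers Upk3b rose (21.0 to 29.1 in Stat3 d/d, 10.9 to 17.6 in Stat3 f/f). Upk3b lost its call after median centring, after quantile normalization and with 45000 assumed tests, and Dcn lost it with 45000 assumed tests. No intensity in the table is 0. The part of these cell types in the changes of the 6 genes was not tested.

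Within the groups, the correlations between pairs of members had both signs. Over the deviations of the 6 arrays from their group means, the correlation between pairs of members ran from -0.84 (Gldc with Slc27a2) to 0.74 (Slc27a2 with Aldoc), as a description of 6 arrays that share labelling and scaling. Gldc and Slc13a5 had a correlation of 0.65, and Aldoc and Lpl, the falls, 0.32. Of the other 956 named genes, those most like Pck1 by this measure were Adamdec1, Sync and Sema3b (r from 0.97 to 0.99), for Gldc Hfe, Ttf1 and Polg (0.93 to 0.98), and for Slc13a5 Cacna1c, Rab6b and Wnt5b (0.95 to 0.97). Those most like Slc27a2 were Slc31a2, Gbp3 and Ifit1 (0.97 to 0.98), for Aldoc Chic1, Sdc2 and Crabp1 (0.98 to 0.99), and for Lpl Nrip1, Nxpe4 and Npnt (0.97 to 0.99). All 3 genes named for Slc27a2 also rose, with correlations of 0.96 to 0.99 over the 6 values themselves. For Pck1 all 3 fell while Pck1 rose, with correlations of -0.92 to -0.83 over the 6 values. Correlations over the 6 values largely reflect the group difference, as the groups are apart across the table. Between 5 (Gldc) and 49 (Aldoc) genes had an r above 0.9, so the order among them carries little.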

How the data were processed

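The authors deposited 1 intensity per probe set and array, on a linear scale. RMA (background correction, quantile normalization and probe summary) is named in the submitters' processing notes, with no version. RMA itself ends in log2 values, and the step back to linear intensities, the genome build and how probe sets were selected are not stated in the labels or headers. Groups come from the source names and replicate numbers from the sample titles.

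Probe sets were named through the platform annotation: 1191 had 1 symbol, 57 several and 134 none, and 1186 matched RefSeq (GRCm38.p6) without a change of symbol. Values were taken as log2(intensity + 1), which understates changes of dim genes, and tested with limma 3.58.1 under R 4.3.3 (lmFit and eBayes, without covariates), as Stat3 d/d minus Stat3 f/f. P-values were adjusted by Benjamini-Hochberg across 1382 probe sets, with a threshold of 0.05. Fold changes are ratios of mean intensities. The number of arrays limits the precision. A list gene with several probe sets was represented by the brightest. The test was checked on simulated data. The replicate numbers 1 and 2 occur in both groups, and deviations of same-numbered arrays correlated at 0.09 and 0.03, so the arrays were not treated as pairs.

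The 6 genes and the lists were chosen with earlier results of these data known. The text names the 6 genes, Stat3, all pathway-list genes in the table, and up to 2 genes for each marker list, with Ptprc besides. For each member it also names the 3 genes with the highest correlation of deviations from group means, leaving out unnamed predicted genes. Neighbouring genes in the closing section were chosen after their values were seen. Figures were drawn with matplotlib 3.10.9.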

Additional observations from a re-analysis of the deposited data

How the results depend on the processing

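Each member kept its direction under every alternative that tested it. Only median centring and quantile normalization could have reversed a direction, as the groups do not overlap in any probe set. All 6 also stayed past an adjusted p of 0.05 in limma without the pseudocount, with trend and robust variance, with each probe set's own variance, with array weights, without any single array and with the replicate number as a block (6 of 6 with this replicate block, as without it). The share of the whole table that passed under these alternatives is not given here. In the main setting it was 100%, so these counts are no result about the members. The block fit rests on replicates 1 and 2 alone, since Stat3 d/d replicate 3 and Stat3 f/f replicate 4 have no partner. It is thus no check on all 6 arrays. Leaving out 1 array at a time gave 6 members and 6 pathway genes past the threshold each time, in a table selected on this same comparison. The log2 changes then ran from 1.98 to 2.24 for Gldc, 0.97 to 1.30 for Slc13a5, 0.84 to 0.94 for Pck1, 0.57 to 0.83 for Slc27a2, -1.64 to -1.08 for Aldoc and -0.89 to -0.60 for Lpl. After median centring 5 members passed, beside 63.2% of the table, and after quantile normalization 4, beside 64.2%. Of the 6 pathway genes, 4 passed under either. Leaving out probe sets with a mean intensity under 20 removed Pck1, Gldc and Slc27a2 before the test, so that 3 members passed. With 45000 assumed tests 4 members and 3 pathway genes passed, beside 37.5% of the table. With 45000 assumed tests and no variance moderation, added after seeing the data, 0 members and 0 pathway genes passed in limma's fit, where the unadjusted p was under 0.05 for 6 members and 6 pathway genes. Each member has 1 probe set, so the mean over probe sets of a gene was not run as an alternative. Without a pseudocount Gldc gave 2.29, in place of 2.08.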

Other observations

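The genes next to the members on the chromosome were looked at after the values were seen. In RefSeq's order of protein-coding genes, Zbp1, an interferon-induced sensor of nucleic acids, is the nearest gene in the table to Pck1, with 0 genes between them, and its change was 1.79 (SE 0.17) by its brighter probe set, the other giving 1.41. Pmepa1, with 1 gene between it and Pck1, fell by 0.90 (SE 0.18). Gnas, with 9 genes between it and Pck1, had a change of -1.08 (SE 0.23). Slc13a5 lies next to Xaf1, an interferon-induced gene of cell death, whose 2 probe sets went in opposite directions, at 1.98 and -3.89. Slc27a2 lies next to Atp8b4, a phospholipid flippase, which rose by 0.92 (SE 0.21). Gldc has 8 genes between it and Papss2, which makes the sulfate donor of sulfotransferases and rose by 0.84 (SE 0.20), and 9 between it and Cd274, the ligand of the PD-1 receptor, which rose by 1.72 (SE 0.18). Lpl has 1 gene between it and Csgalnact1, an enzyme of chondroitin sulfate synthesis, which fell by 0.65 (SE 0.17). It has 8 genes between it and Zfp868, whose change was -0.73 (SE 0.17). Slc46a1, the folate transporter, has 4 genes between it and Aldoc and fell by 0.58 (SE 0.19).

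Within 10 genes on either side, each of the 6 members had between 1 and 3 genes of the table. Of 945 genes of the table with a place in that order, 68.8% had at least 1 such neighbour, with a median of 1, so neighbours in the table are common and the members do not stand out by their number.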
